A study of Mus musculus with 43 samples.

Results

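The genes described here encode the enzymes of de novo fatty acid synthesis and the factors that control it. They are listed by name, by their place in the pathway and not by a measured value: Acly, Acss2, Acaca, Acacb, Fasn, Scd1, Elovl6, Srebf1, Mlxipl and Thrsp. Of these 10 genes, 9 had a row in all 5 tables of the series, which hold 22622 gene identifiers each; Elovl6 was not analysed here. The 9 comprise 6 enzymes (Acly, Acss2, Acaca, Acacb, Fasn, Scd1) and 3 regulators (Srebf1, Mlxipl, Thrsp).

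De novo lipogenesis builds fatty acids from acetyl-CoA. ATP citrate lyase (Acly) and acyl-CoA synthetase short-chain family member 2 (Acss2) supply cytosolic acetyl-CoA, from citrate and from acetate. The acetyl-CoA carboxylases convert it to malonyl-CoA, of which the product of Acaca feeds synthesis in the cytosol and that of Acacb, at the outer mitochondrial membrane, restrains the entry of fatty acids into mitochondria. Fatty acid synthase (Fasn) makes palmitate from malonyl-CoA, and stearoyl-CoA desaturase 1 (Scd1) introduces a double bond into the saturated product. The transcription factors SREBP1 (Srebf1) and ChREBP (Mlxipl) raise these genes in response to insulin and to glucose metabolites, and Thrsp, known as Spot 14, is a lipogenic protein induced by thyroid hormone and carbohydrate. In brown and beige fat, lipogenesis and fatty acid burning can run side by side in the cold.

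Poly(A) RNA was sequenced from inguinal white adipose tissue, the groin fat depot of the mouse, in 43 libraries of 9 groups. Wild-type C57BL/6J mice at postnatal day 28 (P28) lived at 22 C (n = 4) or at 30 C (n = 4), and wild-type C57BL/6J mice at 9 weeks lived at 22 C (n = 4) or at 4 C (n = 4). Mice with floxed TrkA and Th-cre, which acts in cells that make tyrosine hydroxylase such as sympathetic neurons, were sampled at P28 and 22 C (n = 4). Their controls were the 4 wild-type libraries of the 22 C group at P28, not floxed littermates. Mice with floxed Bcl6, a transcriptional repressor, were sampled without Cre (n = 7) and with Prx1-cre (n = 8), housed at 22 C, at P25. Both Bcl6 genotypes were also sampled at 9 weeks and 4 C (n = 4 each), so that both arms there were cold-exposed. Prx1-cre is active in mesenchyme of the limbs and elsewhere, so not in adipocytes alone. The time spent at each temperature is not stated in the labels.

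The values are normalized counts from 5 tables that were scaled separately, so levels were compared only within a table, and levels of different genes are not compared because gene length was not divided out. Estimated depth was 3500000 to 30400000 reads per library, and each of the 9 genes had at least 320.2 normalized counts in every library. The adipocyte genes Adipoq and Plin1 were high in every library, at no less than 7811 and 3660. Total Bcl6 was higher, not lower, in the libraries labelled Prx1-cre, at 1517 to 3329 against 454.3 to 1395 at P25 and 9624 to 14490 against 1607 to 2529 at 9 weeks. Gene totals do not show which exons were read, so this value does not bear on the deletion itself. Epithelial Krt8 varied from 4.70 to 11150 between libraries, while the milk genes Csn2 and Wap did not exceed 8.94 and 0.826. No label says that libraries of a group came from separate animals, and p-values thus refer to the spread among libraries, which may be technical.

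The promoters are shown to give the sequence context of genes whose levels are compared below. Of those printed, 3 are from genes that varied together (Acly, Acss2, Fasn) and 3 from other genes (Acacb, Srebf1, Mlxipl). Acaca varied together with the first 3, and its window is not printed. Mlxipl passed in no comparison of the main fits. Windows of 300 bases (250 before to 50 after an annotated start) were taken from RefSeq on GRCm38.p6, the assembly also called mm10; 11 windows matched 8 of the 9 genes, and Scd1 is named only. Each is written 5′ to 3′ on the gene's own strand, with matches in capitals. Motifs were searched on both strands as CCAAT (bound by NF-Y), GGGCGG (GC box, bound by Sp1), CACGTG (E-box, bound by USF and, in spaced pairs, by ChREBP) and TCACNCCAC (a sterol response element, bound by SREBP).
Acly (chr11:100527951-100528250, - strand): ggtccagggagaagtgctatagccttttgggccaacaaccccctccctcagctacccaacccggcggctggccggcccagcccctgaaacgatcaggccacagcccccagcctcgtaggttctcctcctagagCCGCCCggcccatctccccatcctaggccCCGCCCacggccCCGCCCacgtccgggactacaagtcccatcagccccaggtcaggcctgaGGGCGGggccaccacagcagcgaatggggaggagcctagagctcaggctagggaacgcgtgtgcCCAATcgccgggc
Acss2 (chr2:155517793-155518092, + strand): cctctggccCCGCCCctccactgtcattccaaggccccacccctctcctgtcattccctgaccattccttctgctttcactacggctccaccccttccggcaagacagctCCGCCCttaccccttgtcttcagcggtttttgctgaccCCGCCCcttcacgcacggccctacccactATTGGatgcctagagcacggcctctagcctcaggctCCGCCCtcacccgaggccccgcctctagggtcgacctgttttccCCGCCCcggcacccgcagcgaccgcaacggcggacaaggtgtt
Fasn (chr11:120824498-120824797, - strand): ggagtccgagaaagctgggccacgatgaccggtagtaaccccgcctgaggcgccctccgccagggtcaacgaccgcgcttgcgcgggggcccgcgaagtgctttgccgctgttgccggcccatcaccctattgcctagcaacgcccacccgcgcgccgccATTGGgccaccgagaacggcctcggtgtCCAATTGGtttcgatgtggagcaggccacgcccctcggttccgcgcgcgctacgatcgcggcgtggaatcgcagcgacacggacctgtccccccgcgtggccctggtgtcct
Acacb (chr5:114165268-114165567, + strand): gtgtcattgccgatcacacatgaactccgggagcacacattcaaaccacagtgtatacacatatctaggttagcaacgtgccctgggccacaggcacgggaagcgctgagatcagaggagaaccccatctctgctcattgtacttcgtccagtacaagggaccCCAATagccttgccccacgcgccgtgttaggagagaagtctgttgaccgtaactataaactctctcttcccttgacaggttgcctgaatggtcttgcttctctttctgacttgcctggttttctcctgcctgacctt
Srebf1, the middle of its starts (chr11:60220578-60220877, - strand): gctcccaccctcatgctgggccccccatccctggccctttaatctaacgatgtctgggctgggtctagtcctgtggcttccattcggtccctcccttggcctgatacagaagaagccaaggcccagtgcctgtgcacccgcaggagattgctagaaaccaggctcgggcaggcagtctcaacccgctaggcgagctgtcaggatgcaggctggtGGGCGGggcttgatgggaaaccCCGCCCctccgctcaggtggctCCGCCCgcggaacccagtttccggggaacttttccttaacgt
Mlxipl, the upstream start (chr5:135089640-135089939, + strand): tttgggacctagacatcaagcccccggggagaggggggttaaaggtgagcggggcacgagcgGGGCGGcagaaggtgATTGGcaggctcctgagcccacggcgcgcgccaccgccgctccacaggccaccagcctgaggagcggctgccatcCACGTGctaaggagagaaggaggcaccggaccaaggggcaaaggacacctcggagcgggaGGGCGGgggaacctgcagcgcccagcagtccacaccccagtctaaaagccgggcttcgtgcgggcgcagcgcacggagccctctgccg

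CCAAT or its complement was found in 8 of the 11 windows, those of 7 genes, and in 37.4% of 32851 promoter windows of this length. The gene without it was Acaca, whose window held none of the motifs searched, although Acaca varied together with Acly, Acss2 and Fasn. Fasn held 3 copies, at -90 to -86, -62 to -58 and -59 to -55 from the start, the last 2 of which overlap. GC boxes were found in 5 of the 11 windows and in 35.7% of all windows, with 5 copies in Acss2 and 4 in Acly. The E-box was found in the upstream Mlxipl window, at -98 to -93, and in no other of the 11; 7.15% of all windows held it. The sterol element occurred in the downstream Mlxipl window alone among the 11, and in 1.24% of all. Mlxipl has 2 annotated starts, 17001 bases apart, and Srebf1 has 3, and their gene totals do not separate the transcripts of these starts. The Acacb start used here, 114165518, lies inside the annotated gene, which begins at 114146321. So does the Acaca start, 84195438, in a gene that begins at 84129635. On the minus strand, the Fasn start, 120824547, lies inside a gene that reaches 120825166, and the Srebf1 starts lie inside one that reaches 60224186. A match is a description of the letters in a window and not a bound site. Only the exact strings above were searched. A window without a match can still hold another form of the motif, so no match does not show that SREBP sites are absent.

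The first comparison asks how cooler housing at P28, 22 C against 30 C, changed the lipogenic genes of wild-type mice. All 9 genes had a higher mean log2 value at 22 C, and 2 enzymes, Scd1 and Acacb, passed the test (limma, Benjamini-Hochberg adjusted p under 0.05 over 12283 genes); 3.17% of all tested genes were called higher, 1.29% lower and 4.45% either way. The log2 fold changes of the 9 genes ran from 0.47 to 1.40 with a median of 0.91, against a median of -0.01 over all tested genes. Together the 9 genes made up 4.12 to 6.90% of all normalized counts at 22 C and 1.87 to 2.78% at 30 C, and these ranges did not overlap. In bulk tissue, fewer cells of a type and less RNA per cell cannot be told apart.

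Scd1 (gene ID 20249, chromosome 19, 44394450 to 44407709, GRCm38.p6) read 127700, 172500, 136500 and 217900 normalized counts in the 4 libraries at 22 C and 50800, 60220, 62650 and 70000 at 30 C. Every library at 22 C lay above every library at 30 C, a 2.69-fold ratio of means and a log2 difference of 1.40 ± 0.21 (SE; limma adjusted p = 0.009783). The mouse has close copies of this desaturase gene, and reads that they share could have been split between them. Acacb (gene ID 100705, chromosome 5, 114146321 to 114250761) read 6425, 5990, 3531 and 6621 at 22 C and 1832, 2901, 3052 and 2852 at 30 C. These groups did not overlap either, with a log2 difference of 1.07 ± 0.23 (adjusted p = 0.03466). The call for Scd1 held without each of the 8 libraries in turn, and the call for Acacb was lost without any of them but replicate 3 at 22 C (adjusted p = 0.06378 to 0.1084). The Acacb call was also lost with no mean-variance trend in the fit (adjusted p = 0.06968).

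The other 4 enzymes had higher means at 22 C that did not pass. Acly (gene ID 104112, chromosome 11, 100476352 to 100528000) read 9414, 15930, 6441 and 14850 at 22 C and 3380, 8094, 5827 and 4371 at 30 C, at 1.09 ± 0.34 (adjusted p = 0.111). Fasn (gene ID 14104, chromosome 11, 120805958 to 120825166) read 64950, 97730, 38540 and 90540 against 22560, 48580, 38980 and 37280, at 0.95 ± 0.33 (adjusted p = 0.1509). Acss2 (gene ID 60525, chromosome 2, 155518043 to 155562743) stood at 0.91 ± 0.26 (adjusted p = 0.08965). Acaca (gene ID 107476, chromosome 11, 84129635 to 84401651) stood at 0.79 ± 0.28 (adjusted p = 0.1537). In each of these 4 genes, replicate 3 at 22 C fell within the range of the 30 C libraries, while the other 3 libraries at 22 C lay above that range.

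Among the regulators, Srebf1 (gene ID 20787, chromosome 11, 60199084 to 60224186) read 4047, 3719, 2331 and 4099 at 22 C and 1649, 2712, 2291 and 2768 at 30 C (0.58 ± 0.22, adjusted p = 0.1735). Thrsp (gene ID 21835, chromosome 7, 97412933 to 97417550) read 6315 to 11770 at 22 C and 4646 to 7211 at 30 C (0.63 ± 0.20, adjusted p = 0.1223). Mlxipl (gene ID 58805, chromosome 5, 135089890 to 135139768) read 465.5 to 874.4 against 365.4 to 654.2 (0.47 ± 0.22, adjusted p = 0.2914). All 3 regulators overlapped between the temperatures. Of the 9 genes, 8 had an unadjusted p under 0.05, as did 2386 of the 12283 tested genes. Without replicate 3 at 22 C, the lowest of its group for 8 of the 9 genes, 7 genes were called in place of 2. Over all tested genes, 714 were then called in place of 547.

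Xist, the RNA that coats the inactive X chromosome of female cells, was high in 2 libraries of the 22 C group and in 3 of the 30 C group. Skeletal muscle transcripts were high in some of the libraries at 30 C. Summed over the 9 measured genes of a 12-gene muscle list, they ran from 326.1 to 924.6 at 22 C and from 318 to 16220 at 30 C, with Ckm at 26.7 to 77.97 and 31.5 to 1868. With the muscle level as a covariate, Scd1 stood at 1.44 (adjusted p = 0.09421) and Acacb at 1.02 (adjusted p = 0.2156), and no member passed. Macrophage genes were lower at 22 C for 2 of 10 (Lyz2, C1qb), and their summed values were 4600 to 6275 against 6718 to 8290; the part of macrophages in the result was not tested. The summed adipocyte list was 69300 to 92650 at 22 C and 96930 to 111300 at 30 C, which did not overlap, with 1 of 9 genes lower (Cfd) and a median log2 fold change of 0.20. Cfd was the largest term of that sum, at a mean of 31860 at 22 C and 55620 at 30 C. The lower sum at 22 C thus follows Cfd and not the list as a whole. The summed thermogenic adipocyte list was 3520 to 6006 at 22 C and 1262 to 2316 at 30 C, with 6 of 8 tested genes higher, and its part in the result was not tested. Ucp1, the proton carrier of thermogenic fat, was 949.9 to 2194 at 22 C and 59.3 to 168.5 at 30 C.

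**Figure D1:**
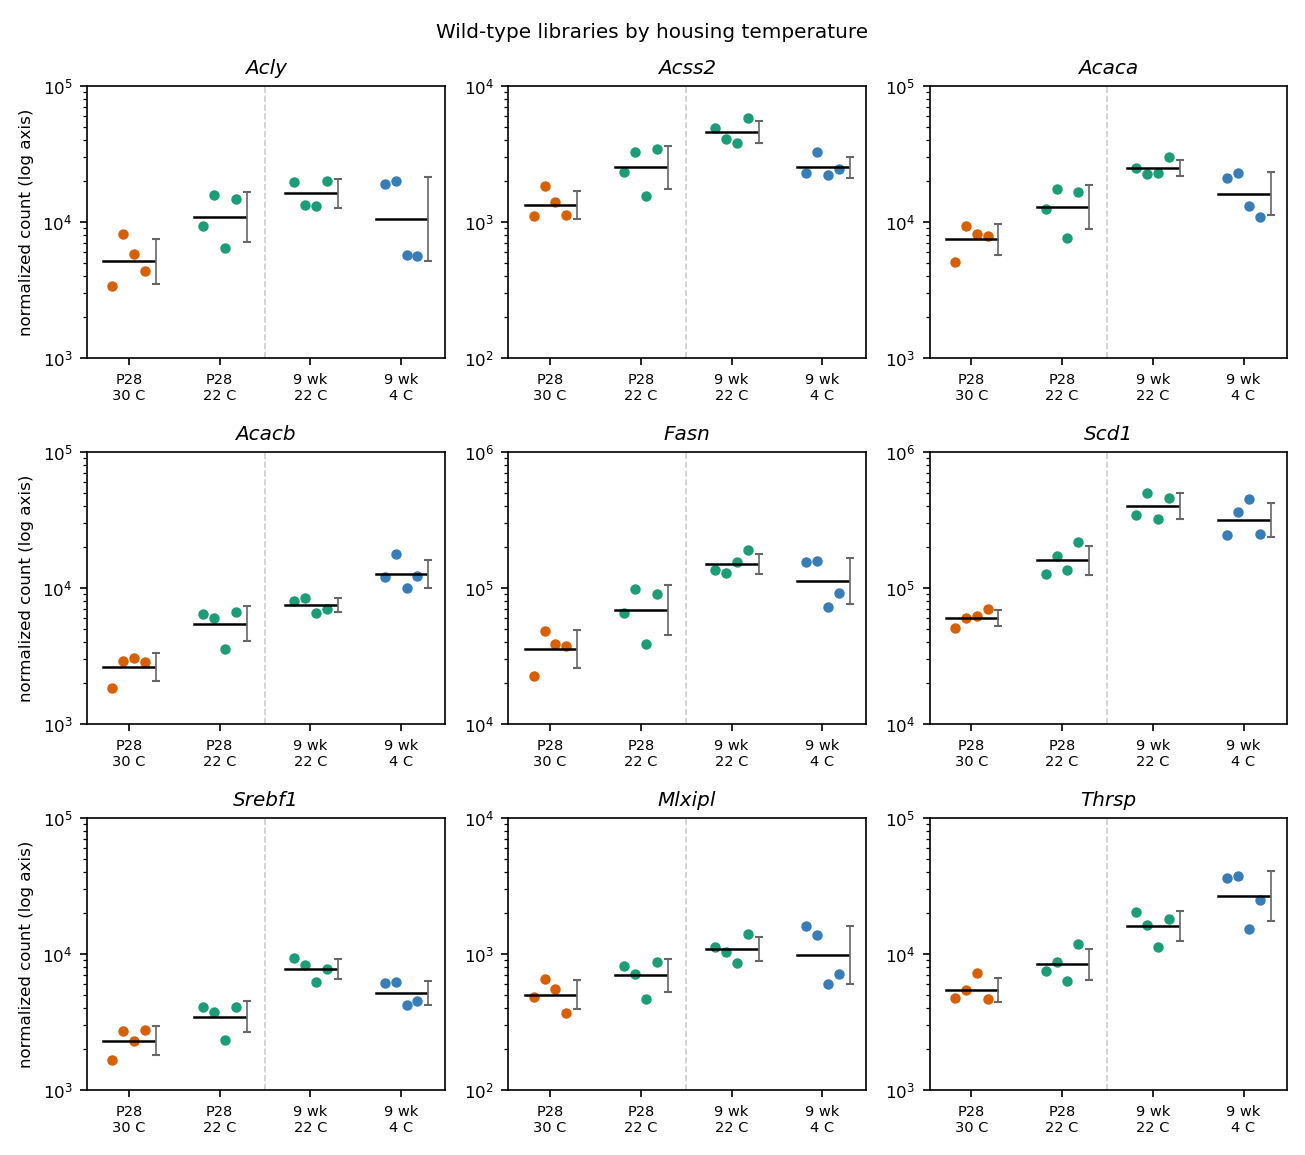
Normalized counts (log axis) of the 9 genes in wild-type libraries at P28 (30 C and 22 C) and at 9 weeks (22 C and 4 C), 1 point per library, n = 4 per group; the bar is the mean and the whisker 1 SD, both on the log2 scale. The dashed line separates tables scaled apart. The 4 libraries at P28 and 22 C lie above the 4 at 30 C for Scd1 and Acacb, and the 4 at 9 weeks and 4 C lie below those at 22 C for Acss2 and above them for Acacb.

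Some genes that feed the pathway also rose at 22 C. Of 12 measured genes for citrate, acetyl-CoA and NADPH supply, 4 rose and none fell, with a median log2 fold change of 0.50. Idh1, the cytosolic isocitrate dehydrogenase that makes NADPH, rose from 1473 ± 59.4 to 1963 ± 145.8 (SD, n = 4 each), at 0.41 ± 0.07 (limma adjusted p = 0.0128). The pentose phosphate enzymes G6pdx and Taldo1 rose by 0.66 ± 0.11 and 0.64 ± 0.11 on the log2 scale (adjusted p = 0.01288 and 0.01655). Pgd, the fourth, was named after its value was seen, at 0.82 ± 0.16. In mitochondrial fatty acid synthesis, a separate pathway that makes the lipoate precursor, 2 of 7 genes rose: Mecr, its reductase, at 0.63 ± 0.08 (adjusted p = 0.004992) and Ndufab1, its acyl carrier protein, at 0.46 ± 0.07.

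Further along the pathway, 1 of 10 tested desaturation and elongation genes rose, Hsd17b12, the ketoreductase of fatty acid elongation, at 0.65 ± 0.10 (adjusted p = 0.009496). Neither control list had a called gene, with 0 of 14 for SREBP and LXR control and 0 of 11 for ChREBP partners and kinase control. Their medians were -0.02 and 0.01, close to that of all genes. Insig1, which retains SREBP in the endoplasmic reticulum and is itself an SREBP target, stood at 0.85 ± 0.28 (adjusted p = 0.1327), and Mid1ip1, which activates acetyl-CoA carboxylase, at 0.75 ± 0.21 (adjusted p = 0.08875).

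The adult comparison asks what 4 C against 22 C changed at 9 weeks in wild-type mice. Here 7 of the 9 genes had a lower mean log2 value in the cooler housing, and Acss2 passed as lower, while 2.44% of 12118 tested genes were called lower, 2.03% higher and 4.47% either way. The 2 genes with higher values in the cold were Acacb and Thrsp. The median log2 fold change of the 9 genes was -0.41, against 0.02 over all tested genes. Their summed share of normalized counts, again mostly Scd1 and Fasn, was 7.20 to 9.84% at 22 C and 5.54 to 7.84% at 4 C, which overlapped.

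Acss2 read 4901, 4098, 3827 and 5772 normalized counts at 22 C and 2280, 3262, 2215 and 2440 at 4 C. All 4 cold libraries lay below all 4 at 22 C, with a log2 difference of -0.87 ± 0.18 (limma adjusted p = 0.03819). This call was lost without replicate 1, 2 or 4 at 22 C or replicate 1, 3 or 4 at 4 C (adjusted p = 0.07011 to 0.1235) and with no mean-variance trend in the fit (adjusted p = 0.05338). Acacb, whose product restrains mitochondrial fatty acid entry, read 8085, 8454, 6515 and 6997 at 22 C and 12070, 17720, 10030 and 12340 at 4 C. It too did not overlap, in the other direction, but missed the threshold (0.77 ± 0.20, adjusted p = 0.06455). Of the 12118 tested genes, 2886 had an unadjusted p under 0.05, and how many did not overlap is not given here. With an Xist covariate, a muscle covariate or library weights, Acacb passed (adjusted p = 0.01353, 0.01757 and 0.03197). Each of these settings also called more of all tested genes than the 542 of the main fit, so these passes are not particular to Acacb.

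Srebf1 read 9283, 8248, 6210 and 7823 at 22 C and 6133, 6215, 4193 and 4526 at 4 C. The groups overlapped by 1 library on each side, at -0.59 ± 0.19 (adjusted p = 0.1038), and the gene passed with the Xist covariate or library weights (adjusted p = 0.01342 and 0.02166). Both settings called more of all tested genes as well. Acaca was 22600 to 30240 at 22 C and 10870 to 22910 at 4 C (-0.63 ± 0.28, adjusted p = 0.2212). Fasn was 128400 to 189400 against 72610 to 159100 (-0.41 ± 0.52, adjusted p = 0.683). Scd1, at 321300 to 502700 against 247100 to 450000, had the widest SE of the 9 genes (-0.33 ± 0.85, adjusted p = 0.8507). Its SD was 21.64% of its mean at 22 C and 29.73% at 4 C, against 23.71% and 63.39% for Acly. The Scd1 SE came from the fit with its mean-variance trend and does not measure the spread of Scd1 alone. Thrsp read 11180 to 20320 at 22 C and 15220 to 37540 at 4 C (0.74 ± 0.34, adjusted p = 0.23).

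Acly and Mlxipl split the 4 cold libraries. Acly read 19030 and 19920 in replicates 1 and 2 at 4 C and 5728 and 5631 in replicates 3 and 4, against 19810, 13340, 13040 and 20180 at 22 C. Mlxipl read 1597 and 1375 in the first 2 cold libraries and 597.5 and 712.7 in the other 2, against 857.6 to 1415 at 22 C. In both groups, replicates 1 and 2 had little Xist (2.74 to 12.6), and replicates 3 and 4 had much (6861 to 7933); the labels of these samples give no sex.

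Temperature effects were therefore computed within the libraries of low and of high Xist, 2 against 2 in each, a split chosen after seeing the data. Acly stood at 0.26 ± 0.28 in the low-Xist libraries and -1.51 ± 0.28 in the high-Xist libraries, a difference of -1.77 ± 0.39 (limma adjusted p = 0.2635). For Mlxipl the effects were 0.46 and -0.75 (limma adjusted p of the difference = 0.287), and for Acaca -0.11 and -1.14 (limma adjusted p = 0.3436). None of the 9 genes passed for the difference, nor did any of the 12118 tested (0%), of which 1423 had an unadjusted p under 0.05. Acss2 was lower in the cold in both subsets (-0.72 and -1.02), Srebf1 likewise (-0.50 and -0.68), and Acacb was higher in both (0.82 and 0.72).

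Around the pathway in the adult cold, some supply genes rose. Of 12 supply genes, 3 rose and none fell, with a median of 0.42: Acss3 at 1.25 ± 0.15 (adjusted p = 0.01076), Acss1 at 1.11 ± 0.23 (adjusted p = 0.03923) and G6pdx at 0.89 ± 0.19 (adjusted p = 0.04223). Acss1 and Acss3 encode mitochondrial relatives of Acss2. Of 12 desaturation and elongation genes, Elovl3 and Hacd3 rose and Fads3 fell. Elovl3, an elongase of very long saturated fatty acids that marks cold-exposed brown and beige fat, went from 26.1 ± 7.60 to 1343 ± 732.7 (SD, n = 4 each). No gene of the SREBP and LXR list (14), the ChREBP and kinase list (11) or the mitochondrial synthesis list (7) passed.

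Other cell types varied within both adult groups. The summed muscle list was 97.4 to 47560 at 22 C and 17.35 to 32070 at 4 C, and the mammary epithelium list 24.4 to 4292 and 9.49 to 8633. The adipocyte list was 169400 to 361500 against 198200 to 293000, with none of 9 genes called. Thermogenic adipocyte genes summed to 1659 to 5330 at 22 C and 15390 to 67860 at 4 C, with 4 of 9 higher (Ucp1, Gk, Elovl3, Cpt1b). Schwann cell genes summed to 6052 to 7242 and 3021 to 3691. Neither list overlapped between the temperatures, and their part in the results was not tested. With the muscle covariate, Acss2 stood at -0.86 (adjusted p = 0.01651).

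The juvenile and adult temperature effects were then set against each other. The difference of the within-table effects, 9 weeks minus P28, passed for Acss2 and Srebf1, both as lower; 1.87% of 11618 genes were called lower, 1.34% higher and 3.21% either way. Acss2 stood at 0.91 at P28 and -0.87 at 9 weeks, a difference of -1.78 ± 0.34 (limma adjusted p = 0.01305). Srebf1 stood at 0.58 and -0.59, a difference of -1.18 ± 0.30 (adjusted p = 0.04644). For both genes the effects at the 2 ages had opposite signs, although neither gene passed the test at P28 and Srebf1 passed at neither age.

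The call for Acss2 held without each of the 16 libraries in turn (adjusted p = 0.00341 to 0.03292) and under 10 other settings. The call for Srebf1 was lost without any of 13 of them (adjusted p up to 0.1059), and was kept without replicate 3 at P28 and 22 C, replicate 3 at 9 weeks and 22 C, or replicate 2 at 9 weeks and 4 C. It was also lost with no filter on low values (adjusted p = 0.05953) or no mean-variance trend (adjusted p = 0.05646). Age and the span of temperature differ together here and cannot be told apart. A table's scale cancels within each effect, and TMM scaling moved the median of all genes by 0.004 at P28 and 0.013 at 9 weeks on the log2 scale.

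The differences for the other enzymes were of similar size but did not pass, at -1.42 ± 0.41 for Acaca (adjusted p = 0.07331), -1.73 ± 0.56 for Scd1 (adjusted p = 0.1104), -1.72 ± 0.62 for Acly (adjusted p = 0.151) and -1.36 ± 0.53 for Fasn (adjusted p = 0.1954). Scd1 passed with a stricter filter or with no mean-variance trend (adjusted p = 0.03765 and 0.01457), and Acaca passed without replicate 3 at P28 and 22 C (adjusted p = 0.02791). Acacb and Thrsp were higher in the cooler housing at both ages, with differences of -0.30 ± 0.32 (adjusted p = 0.6811) and 0.11 ± 0.41 (adjusted p = 0.926). Mlxipl differed by -0.62 ± 0.42 (adjusted p = 0.4875).

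**Figure D2:**
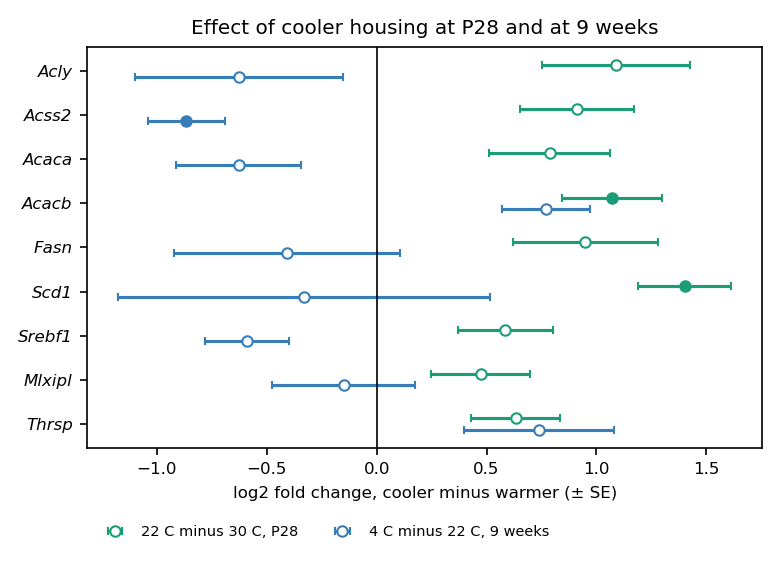
Log2 fold change of the cooler against the warmer housing, with its SE, for each of the 9 genes at P28 (22 C minus 30 C, green) and at 9 weeks (4 C minus 22 C, blue), n = 4 per group; filled points have an adjusted p under 0.05. All 9 genes lie right of 0 at P28, and at 9 weeks Acacb and Thrsp alone do.

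Loss of TrkA in cells with Th-cre was compared with wild type at P28 and 22 C. All 9 genes had a lower mean log2 value with Th-cre, and Acss2 passed, while 1.32% of 11899 tested genes were called lower, 1.34% higher and 2.66% either way. Acss2 read 2039, 2853, 1383 and 2998 normalized counts in wild type and 746.1, 930.3, 1352 and 701.3 with Th-cre, with no overlap (-1.30 ± 0.27, limma adjusted p = 0.03443). The call was lost without wild-type replicate 2 or 4 or Th-cre replicate 1 or 2 (adjusted p = 0.09164 to 0.1064), and with a covariate for Xist (adjusted p = 0.0533), mammary epithelium (adjusted p = 0.05152) or muscle. It was lost too with no mean-variance trend (adjusted p = 0.07269). The median of the 9 genes was -0.34, against -0.01 over all tested genes.

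The remaining genes overlapped between these genotypes. Acly read 8276, 13890, 5690 and 13010 in wild type and 3879, 5594, 8802 and 6360 with Th-cre (-0.70 ± 0.31, adjusted p = 0.2571). Scd1 read 112500 to 191400 in wild type and 176000, 135600, 179900 and 31010 with Th-cre (-0.39 ± 0.58, adjusted p = 0.7657). Replicate 4 with Th-cre was the low library, and without it the log2 fold change of Scd1 was 0.21. The same library had the highest Srebf1 of its table, 4953 against 1881 to 2377 in the others with Th-cre and 2066 to 3601 in wild type. Acacb stood at -0.47 ± 0.30 (adjusted p = 0.421) and Fasn at -0.34 ± 0.38 (adjusted p = 0.6798).

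Xist was high in 2 of 4 wild-type libraries and 1 of 4 with Th-cre. Muscle transcripts did not overlap between these groups, with a summed list of 292 to 827.4 in wild type and 1146 to 5954 with Th-cre. With the muscle covariate, Acss2 stood at -0.68 (adjusted p = 0.7498), and 6 of the 9 genes had a positive value, Fasn at 0.80 and Acaca at 0.57. Because muscle level and genotype go together in these libraries, this fit cannot tell them apart well, and no conclusion is drawn from these values. Macrophage genes rose for 4 of 10 with Th-cre (Csf1r, Lyz2, Mrc1, C1qb), with sums of 4077 to 5515 against 7108 to 8789. Schwann cell sums did not overlap either, at 3554 to 5737 in wild type and 2505 to 3533 with Th-cre, with 1 of 8 genes lower (Cdh19). Thermogenic adipocyte sums were 3120 to 5296 and 1593 to 3410, with 3 of 8 tested genes lower (Ucp1, Gk, Cox7a1). The part of these 3 cell lists in the result was not tested. In the pathway lists, Fads2, the delta-6 desaturase, fell by 1.13 ± 0.25 on the log2 scale (adjusted p = 0.04558), the 1 call among 11 tested desaturation and elongation genes. Prkaa2, the alpha2 subunit of AMP-activated kinase, which phosphorylates and inactivates acetyl-CoA carboxylase, fell by 0.73 ± 0.16 (adjusted p = 0.04038), 1 of 11 in its list. None of the 12 supply genes or the 14 SREBP and LXR genes passed. Because the wild-type libraries are those of the temperature comparison, the effects in these comparisons are not independent of each other.

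At P25 and 22 C the question was what Prx1-cre with floxed Bcl6 changed in the juvenile depot. Srebf1 was lower and was the 1 of 9 genes that passed; 1.97% of 12738 tested genes were called lower, 1.56% higher and 3.53% either way. Its lowest, median and highest values were 5215, 8665 and 17740 normalized counts in the 7 floxed libraries and 3434, 4228 and 6871 in the 8 with Prx1-cre. The groups overlapped at their edges, with a log2 difference of -0.97 ± 0.22 (limma adjusted p = 0.02409). Leaving out floxed library M3 or Prx1-cre library F2, F3 or F4 put it just past the threshold (adjusted p = 0.05043 to 0.05764). Acacb read 6757, 11750 and 26310 in the floxed libraries and 3775, 7520 and 10310 with Prx1-cre (-0.93 ± 0.29, adjusted p = 0.1042), and passed without floxed library F4 (adjusted p = 0.04107) or with the Xist covariate (adjusted p = 0.02547). Without F4, 666 of all tested genes were called in place of 450.

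The column names of this table carry the letter M or F, and Xist was at most 26.4 in the 8 M libraries and at least 4324 in the 7 F libraries. Srebf1 stood at -0.91 ± 0.25 in the M and -0.95 ± 0.28 in the F libraries, and Acacb at -0.995 ± 0.29 and -0.72 ± 0.31, so both genes were lower in both subsets. Neither gene passed within a subset, at adjusted p = 0.1269 and 0.2134 for Srebf1. Thermogenic adipocyte genes did not overlap between these genotypes in their sum, at 10670 to 26040 in the floxed libraries and 2971 to 7853 with Prx1-cre. Of the 9 genes in that list 6 were lower, among them Ucp1 at -4.18 ± 0.38 (limma adjusted p = 6.48e-06), and 1 was higher (Ppargc1a). Among Schwann cell genes 1 of 8 was lower (S100b), among adipocyte genes 1 of 9 (Cfd), and no macrophage, endothelial or muscle gene was called. The part of these lists in the Srebf1 result was not tested. None of the 12738 genes passed for the difference between the subsets (0%), and 198 had an unadjusted p under 0.05.

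The other genes of the pathway differed by less than the spread among these libraries. Acly spanned 5539 to 115300 in the floxed libraries and 5379 to 47610 with Prx1-cre, and its log2 fold change was -0.01 ± 0.60 (adjusted p = 0.9982). Fasn, Acaca, Acss2 and Thrsp lay between -0.18 and 0.02, Mlxipl at -0.41 ± 0.34 and Scd1 at 0.33 ± 0.37. Floxed library M4 was the highest of its group for every gene but Scd1, with 394000 for Fasn and 4729 for Mlxipl. The median of the 9 genes was -0.11, against 0.00 over all tested genes.

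At 9 weeks and 4 C, Prx1-cre with floxed Bcl6 was compared with floxed mice in the same cold. Acacb was lower and was the 1 of 9 genes that passed, while 5.46% of 13496 tested genes were called lower, 9.01% higher and 14.5% either way. It read 28170, 24720, 34430 and 23130 normalized counts in the floxed libraries and 11150, 11720, 17820 and 10320 with Prx1-cre. Every Prx1-cre library lay below every floxed library, with a log2 difference of -1.13 ± 0.19 (limma adjusted p = 0.007074). The call held without each library in turn (adjusted p up to 0.02714) and under the 10 other settings tried (adjusted p up to 0.01708).

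Srebf1 read 13300, 15510, 15480 and 13260 in the floxed libraries and 10520, 10200, 9610 and 4937 with Prx1-cre. These groups did not overlap, but the gene missed the threshold (-0.76 ± 0.23, adjusted p = 0.05943). Of the 13496 tested genes, 4030 had an unadjusted p under 0.05, and how many did not overlap is not given here. Srebf1 passed without Prx1-cre replicate 4 (-0.51, adjusted p = 0.01645) or with library weights (adjusted p = 0.01504). Mlxipl, the ChREBP gene, had higher values in most Prx1-cre libraries, at 2594, 3140, 4901 and 2971 in the floxed libraries and 6071, 4743, 5188 and 3460 with Prx1-cre (0.53 ± 0.22, adjusted p = 0.1523). It passed without floxed replicate 3 (0.72, adjusted p = 0.01724) or with the muscle covariate (0.81, adjusted p = 0.04266) or library weights (0.73, adjusted p = 0.004629). Over all tested genes, library weights also called more than the 1953 of the main fit, and leaving out floxed replicate 3 called 3548. The 2 transcription factor genes of lipogenesis thus had opposite signs in this comparison.

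Acly, Fasn and Acaca were spread widely among the Prx1-cre libraries in the cold. Acly read 34060, 25560, 13960 and 18410 in the floxed libraries and 83180, 58580, 37550 and 10850 with Prx1-cre (0.79 ± 0.59, adjusted p = 0.4071). Prx1-cre replicate 4 was the lowest of its group for all 9 genes, including Fasn (139000 against 307300 to 474400 in the other 3). Acss2 stood at -0.53 ± 0.29 (adjusted p = 0.259), Thrsp at 0.31 ± 0.27, Fasn at 0.23 ± 0.44 and Acaca at 0.22 ± 0.37. Scd1, at 755000 to 1146000 against 718100 to 1183000, stood at 0.04 ± 0.62. Its SD was 17.92% of its mean in the floxed libraries and 24.74% with Prx1-cre. The Scd1 SE came from the fit with its mean-variance trend and does not measure the spread of Scd1 alone. The median of the 9 genes was 0.22, against -0.02 over all tested genes.

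Thermogenic adipocyte genes were lower with Prx1-cre for 8 of 9, with sums of 88970 to 140700 in the floxed libraries and 14040 to 46700 with Prx1-cre, which did not overlap. Ucp1 stood at -2.12 ± 0.39 (limma adjusted p = 0.009976). Of the endothelial genes 2 of 8 were higher (Vwf, Plvap). The summed macrophage list was 11160 to 15120 in the floxed libraries and 19210 to 32500 with Prx1-cre, with 8 of 10 genes higher. The part of these 3 lists in the results was not tested. The muscle list was 2251 to 505500, the highest in floxed replicate 3, against 175.2 to 4478, and Acacb stood at -1.10 with it as a covariate (adjusted p = 0.01708). None of 9 adipocyte genes was called. All 8 libraries had high Xist (20650 to 28370).

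Setting the genotype effects of both ages side by side, Acacb stood at -0.93 at P25 and -1.13 at 9 weeks, and Srebf1 at -0.97 and -0.76. Their differences were -0.20 ± 0.44 and 0.20 ± 0.37, and none of the 9 genes passed for the difference (limma, smallest adjusted p = 0.8173, for Mlxipl). Of 12487 tested genes, 12 passed, or 0.0961% (0.048% higher and 0.048% lower), and 850 had an unadjusted p under 0.05. The Mlxipl effects were -0.41 and 0.53, a difference of 0.94 ± 0.52.

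**Figure D3:**
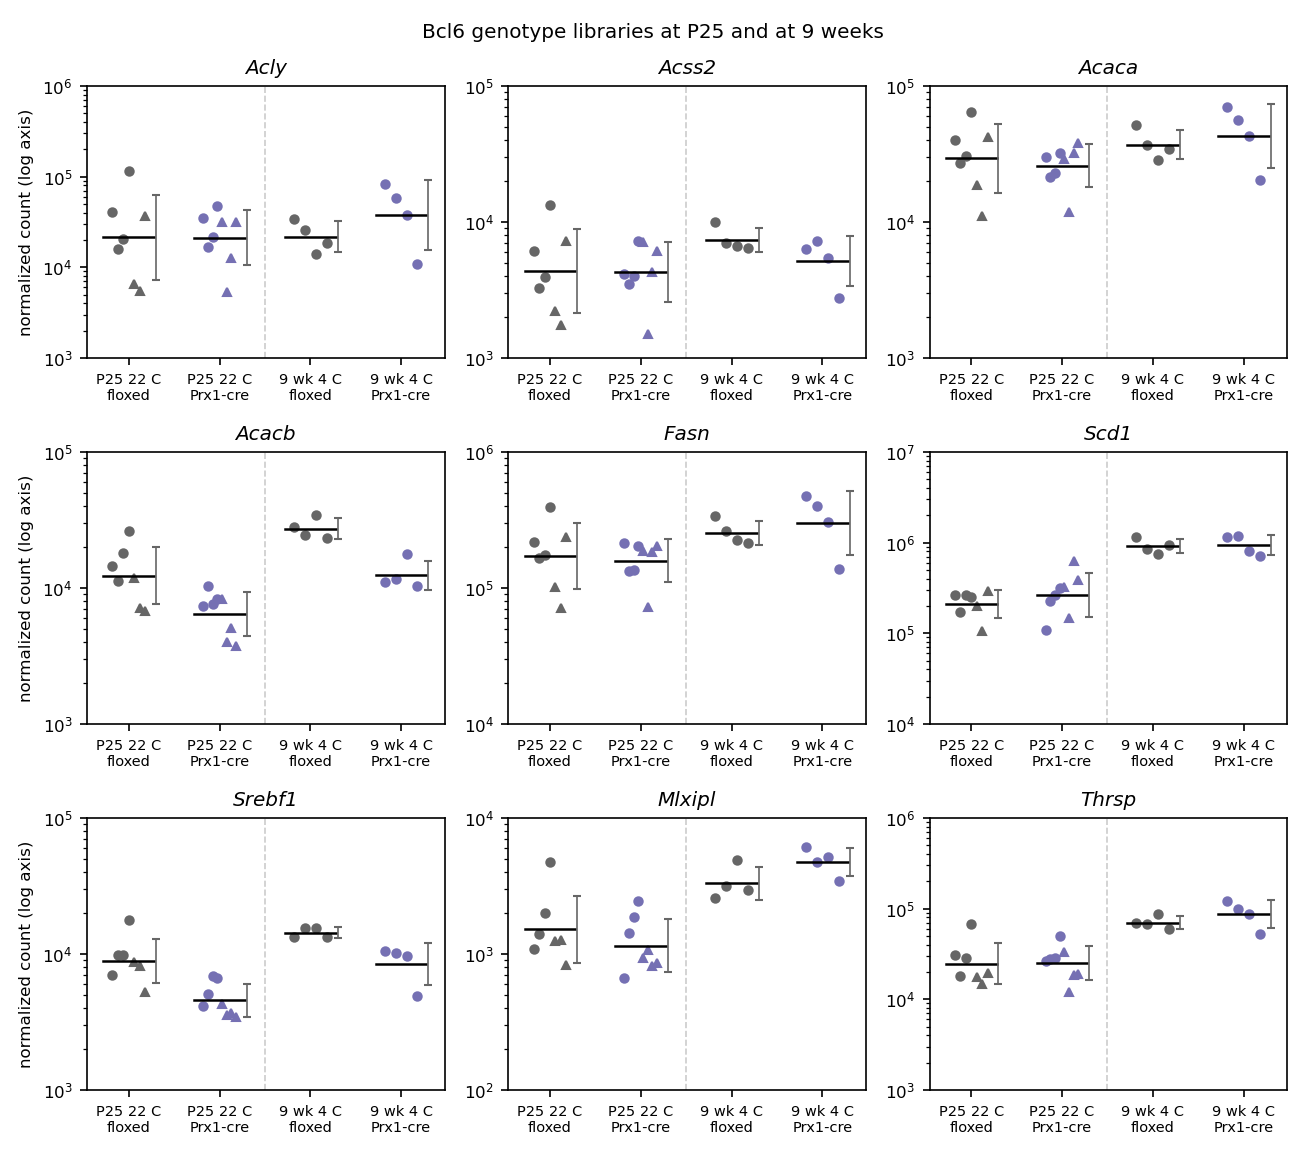
Normalized counts (log axis) of the 9 genes in floxed Bcl6 libraries without (grey) and with Prx1-cre (violet) at P25 and 22 C (n = 7 and 8; triangles are columns lettered F, circles M) and at 9 weeks and 4 C (n = 4 each, circles). The bar is the mean and the whisker 1 SD on the log2 scale, and the dashed line separates tables scaled apart. At 9 weeks Acacb and Srebf1 do not overlap between genotypes, and at P25 both overlap at the edges.

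Elongation genes moved in both Bcl6 comparisons; Elovl3 is also in the thermogenic list. At P25, 3 of 12 tested desaturation and elongation genes rose with Prx1-cre and 1 fell. Elovl1 rose from 240.4 ± 22.8 (SD, n = 7) to 353 ± 46.97 (SD, n = 8), Hacd1, a dehydratase of elongation, from 369.3 ± 54.6 to 533 ± 45.8, and Elovl3 fell from 124.9 ± 80.7 to 7.87 ± 4.68. At 9 weeks, 3 of 14 rose and 3 fell. Elovl1 stood at 0.61 ± 0.07 (limma adjusted p = 0.001202), Elovl3 at -3.59 ± 0.46 (adjusted p = 0.002586) and Hsd17b12 at -1.05 ± 0.14 (adjusted p = 0.003007). The medians of the list were 0.13 and 0.04.

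Most of the 12 supply genes were not called in either table. At P25, 1 of 12 passed: Me3, a mitochondrial malic enzyme that makes NADPH, at -1.90 ± 0.34 (adjusted p = 0.004485). At 9 weeks, 2 fell and 1 rose. Aacs, which makes acetoacetyl-CoA from ketone bodies in the cytosol, fell by 0.93 ± 0.19 on the log2 scale (adjusted p = 0.01505), Acss1 fell by 0.65 ± 0.16 (adjusted p = 0.0305), and Me2 rose by 0.34 ± 0.09 (adjusted p = 0.04421). No gene of the SREBP and LXR list passed in either table. Of the ChREBP and kinase list, 2 of 11 rose at 9 weeks, the insulin receptor substrate Irs1 at 0.34 ± 0.07 (adjusted p = 0.0117) and the AMP-activated kinase subunit Prkag2 at 0.35 ± 0.08 (adjusted p = 0.0198).

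**Figure D4:**
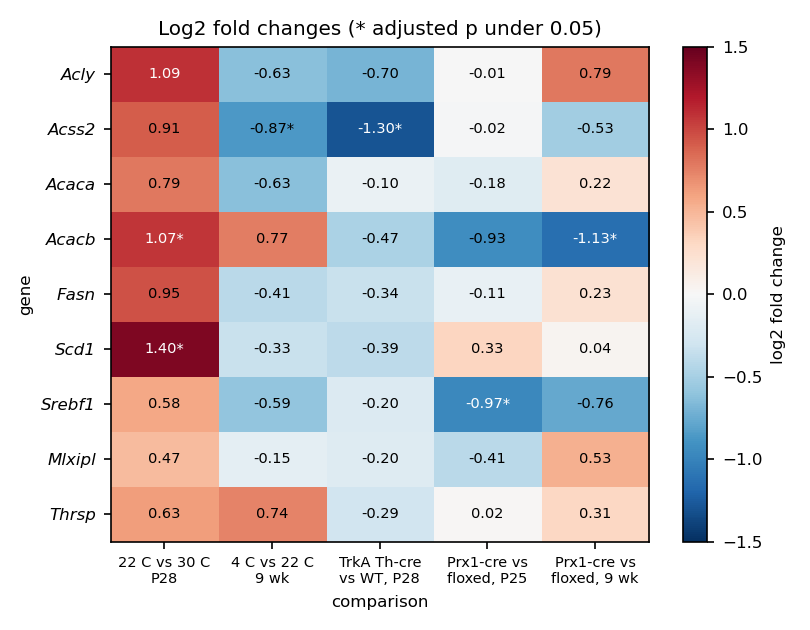
Log2 fold changes of the 9 genes (rows) in the 5 comparisons (columns), printed in each cell and shown by colour (red higher, blue lower), with an asterisk where the adjusted p is under 0.05. The P28 temperature column is positive throughout, from 0.47 to 1.40, and the TrkA column, which shares its wild-type libraries, negative throughout, from -1.30 to -0.10.

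Within groups, several genes of the pathway varied together. After each group's mean log2 value was removed, Fasn and Acaca had a Pearson correlation of 0.965 across the 43 libraries, Fasn and Acly 0.926, Acaca and Acly 0.919, and Acly and Acss2 0.907. Srebf1 correlated with Mlxipl at 0.799 and Mlxipl with Thrsp at 0.743, while Fasn correlated less with either factor, at 0.438 for Srebf1 and 0.413 for Mlxipl. Thrsp also varied with enzymes, at 0.821 with Acly, 0.758 with Acss2, 0.737 with Fasn and 0.683 with Acaca. It was at 0.667 with Srebf1 and 0.194 with Scd1, so the regulators did not form a set apart from the enzymes. Scd1 correlated at 0.543 with Acaca, 0.524 with Acss2 and 0.383 with Fasn, and at -0.194 with Srebf1 and -0.046 with Mlxipl. Libraries share depth, tissue makeup and table scaling, so these values are descriptions.

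Outside the 9 genes, those whose group-centred values were most like the mean of the 9, among 7126 genes with a mean of at least 100 in each table, were Slc25a1 (0.949), Pcx (0.927), Dgat2 (0.921), Pygl (0.913) and Tlcd3b (0.904). Slc25a1 is the citrate carrier that exports citrate from mitochondria, Pcx is pyruvate carboxylase, Dgat2 makes triglyceride, and Pygl is a glycogen phosphorylase. With only the table means removed, Pcx (0.931), Dgat2 (0.903), Eno1 (0.887), Slc25a1 (0.887) and Pygl (0.879) led. Of these, Pcx, Dgat2, Slc25a1 and Pygl stood in both lists.

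**Figure D5:**
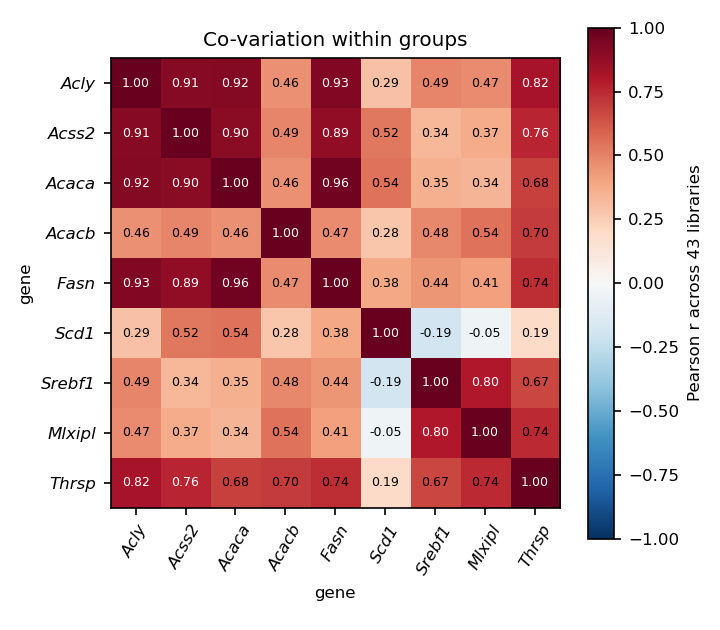
Pearson correlation between the log2 values of each pair of the 9 genes across 43 libraries after removing group means (red positive, blue negative). Acly, Acss2, Acaca and Fasn lie between 0.888 and 0.965 with each other, and Scd1 is at -0.194 with Srebf1.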

How the data were processed

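The authors deposited 1 normalized signal value per gene and library (normalized counts), split over 5 tables, 1 for each comparison. Kallisto, DESeq2 and mm10 are named, without roles, per the submitters' processing notes; for versions and annotation, they were not given in the sources used here. Per the labels' protocols, a stranded mRNA kit was used. Whole multiples of a library's most frequent low value, within a tolerance of 0.02, made up 23.94 to 70.43% of its low values, so whole reads were not recovered and depth is an estimate.

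Values were compared within each table as log2(value + 1) with limma 3.58.1 in R 4.3.3, with its mean-variance trend. Genes had to reach 10 in at least the number of libraries of the smaller group. Benjamini-Hochberg adjustment covered every gene tested in a table, and an adjusted p under 0.05 was called. Lack of overlap between groups is a description of the named genes, and its share over all tested genes is not given. Fold changes so computed understate those of low genes. Differences between ages came from a limma fit over both tables' libraries with terms for the table, the condition and their interaction. The scripts were tested on simulated data. No fold change rests on a level set across tables.

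The genes and lists were chosen with earlier results of these data known. The text names all members in every table, up to 3 genes per pathway list and table with the smallest p, a few marker genes, Bcl6 and the 5 genes most alike; a check of the gene targeted in the Th-cre libraries is not reported here. Alternatives were TMM and median-of-ratios scaling, other pseudocounts and filters (none, or 50), a replicate block, covariates for Xist and muscle, library weights and leaving out each library. A mammary epithelium covariate, a fit with no trend, and the M, F and Xist subsets were chosen after seeing the data. Columns of the P25 table match a group but no sample number. Python 3.11.15 with matplotlib 3.10.9 drew the figures.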

Additional observations from a re-analysis of the deposited data

Results flagged for a closer look

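In 81 sets of library values (9 genes in 9 groups), 8 had a library set apart from the rest of its group by Dixon's test. The test was run on normalized counts and not on the log2 values used for the fits. Chance sets apart about 1 in 20 if values are normally distributed, which was not checked, and high values stand further apart as counts than as log2 values. Floxed Bcl6 library M4 at P25 gave 4 of them, with 115300 normalized counts of Acly (5539 to 40990 in the other 6), 17740 of Srebf1 (5215 to 9891), 4729 of Mlxipl (824.5 to 1996) and 68220 of Thrsp (14580 to 30810). Srebf1 stayed called at P25 without M4 (-0.80), but not without floxed M3 or Prx1-cre F2, F3 or F4. Th-cre replicate 4 had 4953 of Srebf1 (1881 to 2377 in the other 3). Replicate 4 of Prx1-cre at 9 weeks had 4937 of Srebf1 (9610 to 10520). Replicate 1 of the floxed group at 9 weeks had 10040 of Acss2 (6445 to 6957), and wild-type replicate 1 at P28 and 30 C had 1832 of Acacb (2852 to 3052).

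The effect of cooler housing differed between the ages by a test of the difference for Acss2, at -1.778, and for Srebf1, at -1.176, on the log2 scale.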

How the results depend on the processing

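Other size factors, pseudocounts of 0.5 and 5, and both filters reversed no value of the 9 genes; 2 calls moved, the age differences of Srebf1 (lost with no filter) and Scd1 (gained at the filter of 50). The count of genes called in the P28 temperature comparison, 547, was 236 with the replicate block, 74 with the muscle covariate, 905 with library weights and 320 with no mean-variance trend. The 2 genes of the pathway became 1, 0, 7 and 1. For TrkA, 317 genes became 3 with the muscle covariate, 957 with weights and 204 with no trend, and the 1 gene of the pathway became 0 with the replicate block, the Xist, muscle or mammary covariate, or no trend. At P25, 450 genes became 111 in the M and 19 in the F libraries, fewer samples in each, and the 1 gene of the pathway 0 in both and 2 with the Xist covariate. For Bcl6 at 9 weeks, 1953 genes became 1171 with the block and 4777 with weights, and the 1 gene of the pathway 2 with the muscle covariate and 3 with weights. For adult temperature, 542 genes became 356 with no filter, 1666 with the block, 2226 with Xist, 1889 with muscle, 1872 with weights and 265 with no trend. There the 1 gene of the pathway became 4 with the block, 3 with Xist, 2 with muscle, 3 with weights and 0 with no trend. The 373 genes whose temperature effect differed by age became 575 with Xist, 718 with muscle and 1920 with weights, and the 2 of the pathway 1 with no filter and 6 with weights. The 12 genes whose Bcl6 effect differed became 6 at the filter of 50, 3 with muscle and 467 with weights. The cause of these shifts was not tested.

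Leaving out each library in turn gave 176 to 714 genes for P28 temperature (1 to 7 of the pathway), 93 to 870 for TrkA (0 to 1), 288 to 666 at P25 (0 to 2), 1055 to 3548 for Bcl6 at 9 weeks (1 to 2) and 36 to 356 for adult temperature (0 to 1). The age differences gave 163 to 573 for temperature (1 to 3) and 3 to 60 for Bcl6 (0 throughout). The highest counts came without P28 22 C replicate 3, Th-cre replicate 4, floxed F4 at P25, floxed replicate 3 at 9 weeks (both Bcl6 counts at that age) and 9-week 22 C replicate 3. The lowest for adult temperature came without 4 C replicate 1.

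Some log2 values changed sign. For TrkA the muscle list did not overlap between genotypes, so values with that covariate do not separate muscle from genotype. For TrkA with the muscle covariate, Fasn became 0.7983, Acaca 0.5703, Acly 0.2922, Srebf1 0.1906, Mlxipl 0.5795 and Thrsp 0.1977; leaving out 1 library gave -0.3413 to 0.0491 for Acaca, -0.3906 to 0.0336 for Mlxipl and -0.6382 to 0.2072 for Scd1. At P25, Acly became 0.0761 with Xist, 0.3694 with weights and 0.557 in F libraries, and Acss2 0.0189, 0.2159 and 0.4283. Fasn became 0.0362 with weights and 0.3202 in F libraries, and Acaca 0.3158 in F libraries. Thrsp became -0.0667 with muscle and -0.0061 in M libraries, and Scd1 -0.1398 in M libraries. Leaving out 1 library at P25 gave -0.3344 to 0.3955 for Acly, -0.2362 to 0.2527 for Acss2, -0.1263 to 0.2631 for Thrsp, -0.325 to 0.0859 for Fasn and -0.4108 to 0.0121 for Acaca. For Bcl6 at 9 weeks, Scd1 became -0.0513 with muscle and ran from -0.065 to 0.1749, and Acaca from -0.0152 to 0.5804. For adult temperature Mlxipl ran from -0.3821 to 0.0901. The Thrsp age difference became -0.2457 with weights and ran from -0.0664 to 0.3811. None of these genes was called in those comparisons.

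In no table did every same-numbered pair deviate together, so the numbers were not taken to pair the libraries: same-numbered deviations correlated at -0.662 to -0.021 for P28 temperature, -0.14 to 0.207 for TrkA, -0.346 to 0.161 for Bcl6 at 9 weeks and -0.262 to 0.768 for adult temperature. There, 3 of 4 pairs were at 0.501 or above, and the replicate block added calls for Acacb, Srebf1 and Thrsp (adjusted p = 0.01919, 0.02309 and 0.0471). Not every library correlated best with its own number. No paired analysis was possible for P25 because its columns carry no sample number. The Xist covariate could not be fitted at 9 weeks in the Bcl6 table, where all libraries had high Xist.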
